A study of Saccharomyces cerevisiae with 36 samples.

Results

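Budding yeast carries introns in only a small share of its genes, and several of those genes are used in meiosis. The 8 meiotic genes described here are MEI4, REC114, REC107 (also called MER2), DMC1, HOP2, HFM1 (also called MER3), PCH2 and SPO1. They were taken by gene symbol from the annotation of the array, which named 230 genes. Each of the 8 genes had 3 neighbouring probes, which were read from their order as junction, intron and exon, giving 24 of the 724 probes with a gene symbol. The roles are likely but are not stated by the labels. All 8 members are reported in all 18 mutants, with the arrays on which a probe gave no ratio counted as missing.

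In meiosis the genome is copied once and divided in a pair of rounds, and recombination starts with programmed DNA double-strand breaks. MEI4, REC114 and REC107 encode partners of Spo11, the protein that makes the breaks. DMC1 encodes a strand-exchange protein related to RecA, HOP2 a factor that helps it pair homologous chromosomes, and HFM1 a helicase needed for crossovers. PCH2 encodes an AAA+ ATPase of the meiotic checkpoint, and SPO1 a protein related to phospholipases that acts in meiosis and spore formation. In dividing cells these genes are largely kept off. The introns of REC107 and HFM1 are known to be spliced with the help of Mer1, a protein made in meiosis, which works together with Nam8 of the U1 snRNP.

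The mutants comprised prp4-1a, which carries a heat-sensitive allele of a gene for a U4/U6 snRNP protein, and 17 strains with 1 gene deleted. Each was set against wild type on 2 arrays that carried both RNAs, with the channels of mutant and wild type exchanged, so that 36 arrays were used. Factors of the spliceosome and its particles were missing in brr1, cus2, ecm2, msl1, mud1, mud2, nam8, prp17, prp18, snu17, snu40 and snu66. The lariat debranching enzyme was missing in dbr1, the large and small subunits of the nuclear cap-binding complex in gcr3 and mud13, a factor of nonsense-mediated decay in upf3, and a protein disaggregase in hsp104. Per the labels, the deletion strains other than dbr1 were grown at 26 °C beside BY4741, a haploid laboratory wild type. The prp4-1a strain and its own wild type SS330 were moved from 26 °C to 37 °C for 2 h. For dbr1 and its wild type the labels give a pool of RNA from haploid and diploid cells, partly dividing and partly sporulating, and no temperature. The labels name sporulating cells for no other strain.

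Each value is a log2 ratio, mutant over wild type, with no level of either channel. For the intron index the exon probe of a gene was subtracted from its intron probe, and for the junction index from its junction probe. A value is written as the estimate ± its standard error from a limma fit over all 36 arrays, with n = 2 arrays per mutant. A change is called, and written as a rise or a fall, where the p-value adjusted by Benjamini and Hochberg over all features of that measure in that mutant was under 0.05. Only probes measured on both arrays of a mutant were tested. The sources used here do not say whether the 2 arrays hold RNA of separate cultures, so p-values reflect the spread between arrays alone, which may be technical. In RNA from whole cultures, fewer cells with an RNA and less of it per cell cannot be told apart.

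The deleted genes with named probes were MUD1 and STO1, the gene missing in gcr3. The exon probe averaged −2.56 ± 0.10 (SD, n = 2) for MUD1 in mud1, against −0.73 to 0.36 on all other arrays. It averaged −5.59 ± 0.31 (SD, n = 2) for STO1 in gcr3, against −1.25 to 0.87 on all other arrays. The junction probes of both genes were low too, at −3.91 ± 0.04 for MUD1 and −5.46 ± 0.63 for STO1. Of the intron probes, that of MUD1 was low, at −1.81 ± 0.03, but that of STO1 went the other way in gcr3, at 1.06 ± 0.13. The labels do not settle which channel is on top of the ratio, and channel 2 over channel 1 was taken as likely on these grounds. Among arrays of 1 orientation, prp4-1a correlated over all probes at −0.40 with cus2, −0.43 with hsp104 and −0.36 with nam8, and hsp104 at −0.36 with snu17, whereas in the other orientation these pairs correlated at 0.55, 0.29, 0.40 and 0.31. With the sign turned, each rise below would be a fall and each rank from the lowest a rank from the highest. The 2 arrays of prp4-1a lay further apart than those of most strains, by 3.80 times the median spread for intron probes, 4.88 times for junction probes and 3.10 times for exon probes. The factor in prp4-1a was 4.41 for the intron index and 4.89 for the junction index. For dbr1 it was 2.23 for intron probes and 2.09 for the intron index. For mud13 it was 2.99 for exon probes, 2.43 for junction probes, 2.43 for the intron index and 2.60 for the junction index. Standard errors in these strains are too small.

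The meiotic genes gave fewer usable ratios than other genes. Their 24 probes were measured on a median of 23 of the 36 arrays, against 36 for all named probes, and 4 of 24 were measured on every array, against 574 of 724. The exon probes of MEI4, REC107, HOP2 and HFM1 were these 4. At the other end, the intron and junction probes of HFM1 and the junction probe of DMC1 were measured on 5 arrays each, and the intron probes of REC114 and HOP2 on 6. In dbr1 22 of the 24 probes gave a ratio on each array, with different probes missing on the 2 arrays. Outside dbr1 the count ran from 8 to 23 with a median of 13.5, although 90.1% to 99.4% of all named probes were measured on those arrays. The highest counts outside dbr1 were 23 on array 1 of nam8 and of mud13, 22 on array 2 of prp4-1a and 21 on array 2 of prp17, each with a lower count on the exchanged array (16, 12, 10 and 13).

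**Figure D1:**
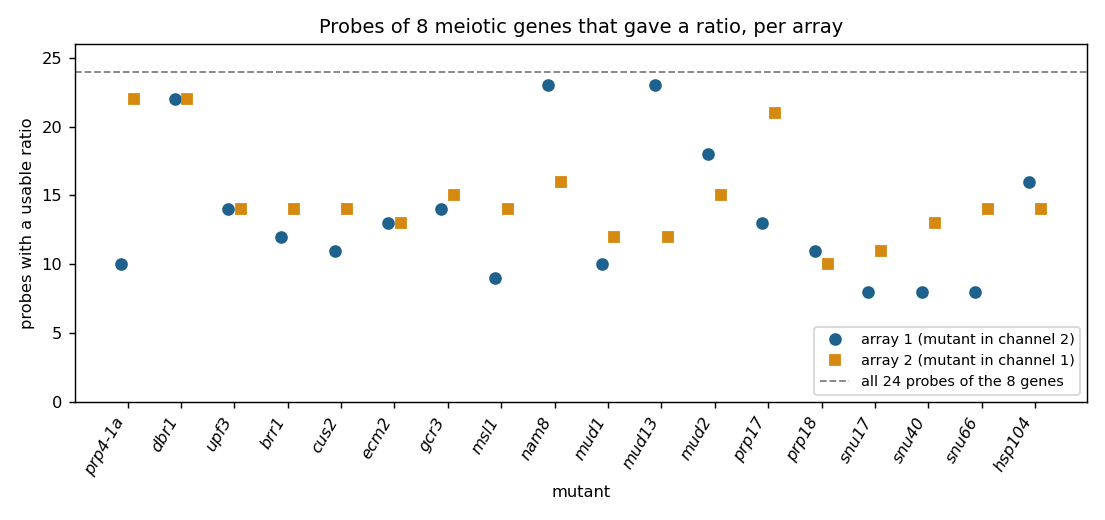
Number of the 24 probes of the 8 meiotic genes (vertical axis) with a usable ratio on each array, by mutant (horizontal axis). Circles are array 1 and squares array 2, and the dashed line marks all 24 probes. Both dbr1 arrays stand at 22, and the other arrays lie between 8 and 23.

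Over the 18 mutants, 37 intron indices of the 8 genes could be tested and 6 rose, while 49.6% of all intron indices tested rose. REC107 gave 17 of these tests, SPO1 10 and DMC1 5, so that the count mainly describes REC107 and SPO1. The tests also fell unevenly over mutants, with 4 in nam8 and 1 in prp4-1a, unlike those of all introns. By limma 0 of the 37 fell, and 1 (REC107 in upf3) was below 0 at an unadjusted p under 0.05. Intron probes changed in 12 of 54 tests, with 9 rises and 3 falls, against 48.8% of all intron probes. Exon probes changed in 20 of 108 tests, with 9 rises and 11 falls, against 28.7% of all exon probes. Junction probes changed in 8 of 48 tests, split evenly between rises and falls, against 27.7% of all, and junction indices in 4 of 37, against 9.79% of all. No probe or index of the 8 genes was called by limma in nam8, cus2, hsp104, snu40 or mud2, where 6 were at an unadjusted p under 0.05, 3 of them in mud2, 2 in snu40 and 1 in cus2. In mud2, with 2 intron indices of the 8 genes tested, 43.3% of all intron indices rose, and in nam8, with 4 tested, 4.52% of all. In cus2, hsp104 and snu40 limma called 0 of 590 intron probes and 0 of 586 intron indices over all genes, with 8 and 12 at an unadjusted p under 0.05.

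In dbr1, where excised introns are not opened, the intron probes of HFM1, REC107 and SPO1 rose. The HFM1 intron probe read 3.42 and 3.71 on the 2 arrays, a rise of 3.56 ± 0.16 or 11.8-fold (adjusted p = 1.6e-11). Its junction and exon probes gave −0.33 ± 0.15 and −0.05 ± 0.14, neither called. The intron of this crossover helicase gene thus stood apart from the other probes of the gene, with an index of 3.61 ± 0.19 (adjusted p = 2.1e-08). The HFM1 intron had no residual degrees of freedom of its own, so that its error is the one shared with all introns. It was measured on both arrays in dbr1 alone, and so entered the test only in the strain where it was high. On the single arrays that measured it elsewhere the HFM1 intron probe read 0.37 in prp4-1a, 0.51 in prp17 and −0.43 in mud13.

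REC107, which encodes a Spo11 partner, had intron values of 2.36 and 2.22 in dbr1, a rise of 2.29 ± 0.13 or 4.90-fold (adjusted p = 1.7e-16). The REC107 exon probe read −0.05 and 0.45, and its junction probe −0.09 and 0.42, on either side of 0. Its intron index was 2.10 ± 0.14 (adjusted p = 2.2e-13). The SPO1 intron probe read 1.21 and 1.70, a rise of 1.46 ± 0.17 (adjusted p = 5.0e-09). The SPO1 exon probe gave a ratio on array 2 alone, so that its index of 1.67 there was not tested. All 3 intron probes were well above 0 on both arrays.

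The other 5 introns were lower or were measured on 1 array alone in dbr1. The MEI4 intron probe read 0.10 and 0.42, not called, and the MEI4 intron index 0.62 and 0.51, a rise of 0.56 ± 0.18 (adjusted p = 0.015). Without array 2 the MEI4 index was 0.34 and not called, and it rested on 1 residual degree of freedom. For DMC1, the strand-exchange gene, the intron probe was measured on array 2 alone and read 1.61, with an index of 1.56 there, not tested. On array 1 alone, the REC114 intron probe read 0.23 and the PCH2 intron probe −0.37, neither tested, with indices of 0.51 and 0.64. The HOP2 intron probe read −0.44 and −0.21, the lowest of the 187 intron probes tested in dbr1, and its index was 0.11 ± 0.19 and not called. Its array 2 value came from 1 spot, and the HOP2 intron had no residual degrees of freedom of its own. Of the 5 intron probes tested, 3 rose, with 85.6% of all intron probes raised in dbr1. Of the 4 indices tested, 3 rose, with 81.6% of all raised. The median index was 1.33 over these 4 and 1.68 over all 185.

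Exon and junction probes of the meiotic genes in dbr1 had medians below those of all genes. The median over the 7 exon probes tested was −0.27, against 0.10 over all 226, and 6 of the 7 were below 0. Over the 8 junction probes the median was −0.27, against 0.10 over all 222. PCH2, the checkpoint ATPase gene, had exon values of −1.004 and −0.33, a fall of 0.67 ± 0.15 on the log2 scale (adjusted p = 0.032) and the lowest of all exon probes. HOP2 had exon values of −0.53 and −0.35 (−0.44 ± 0.13, adjusted p = 0.045) and junction values of −0.88 and −0.64 (−0.76 ± 0.15, adjusted p = 0.043), the lowest of all junction probes. Both PCH2 and HOP2 were thus lower on both arrays. Exon probes fell in 1.77% of all tests in dbr1 and junction probes in 0.901%. The PCH2 exon value was −0.25 and not called without array 1, neither HOP2 value was called without either array, and the HOP2 junction probe had no residual degrees of freedom of its own. The labelled mixture of dividing and sporulating cells moves with dbr1, and its part in these values was not tested.

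**Figure D2:**
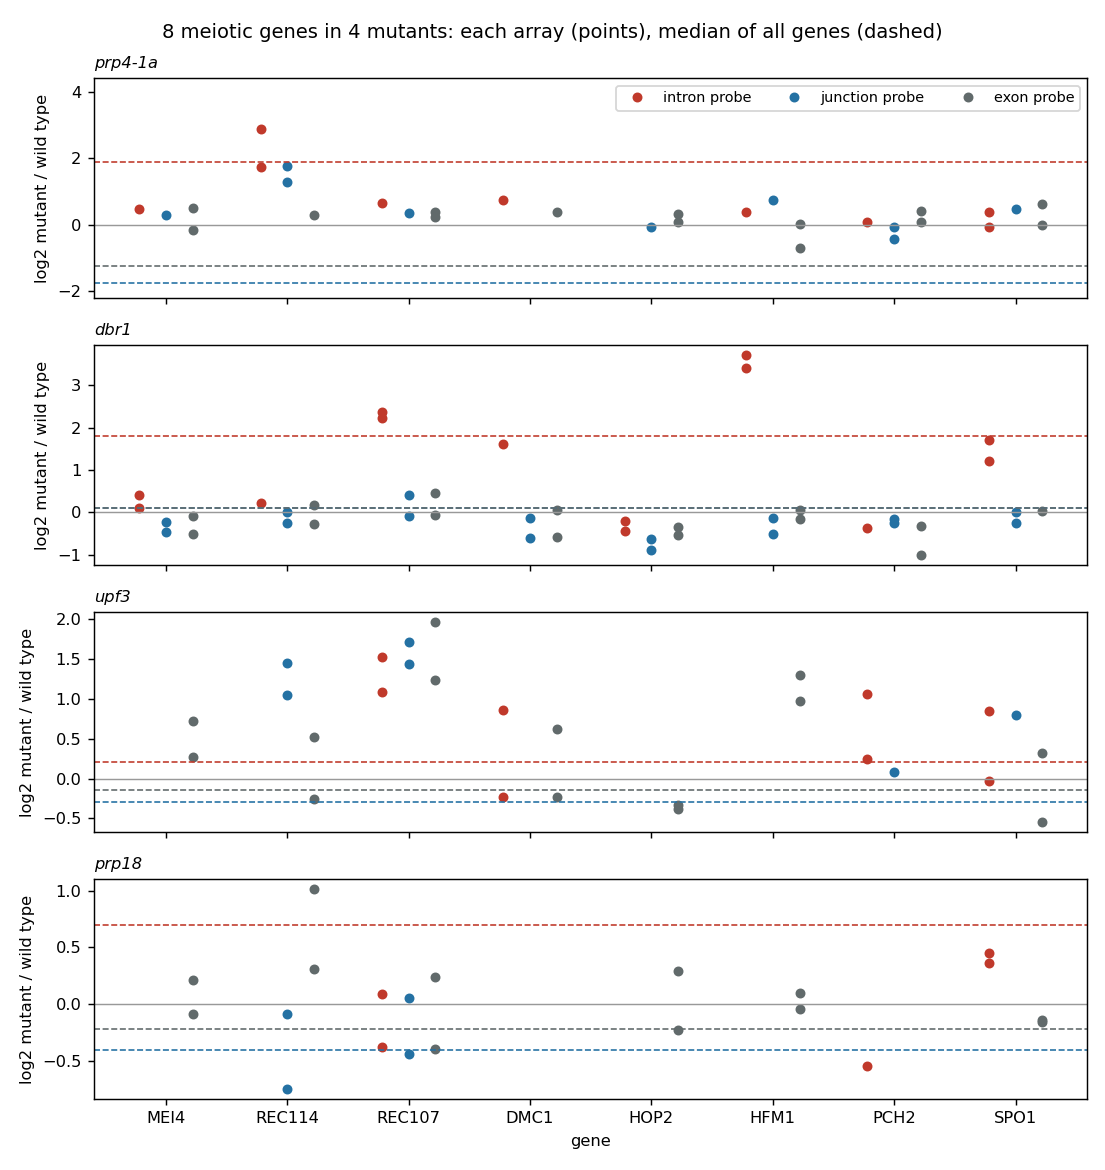
Log2 ratio of mutant over wild type (vertical axis) for the 8 genes (horizontal axis) in prp4-1a, dbr1, upf3 and prp18. Points are single arrays in red for intron, blue for junction and grey for exon probes, and dashed lines of the same colours are medians over all genes. HFM1, REC107 and SPO1 introns stand apart from their exon probes in dbr1, REC107 has all probes raised in upf3, and REC114 lies above the junction median in prp4-1a.

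In upf3, which lacks a factor of the pathway that destroys RNAs with early stop codons, REC107 was higher at all its probes. Its exon probe read 1.24 and 1.96, a rise of 1.60 ± 0.13 or 3.03-fold (adjusted p = 2.5e-10) and the highest of 226 exon probes. The junction probe read 1.44 and 1.71 (1.58 ± 0.13, adjusted p = 1.1e-08), the highest of 217, and the intron probe 1.08 and 1.53 (1.31 ± 0.13, adjusted p = 2.8e-09). The intron and exon probes of REC107 moved together here, with an index of −0.29 ± 0.14 that was not called. Its index was the 6th lowest of 207, with a median of 0.35 over all.

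HFM1 had exon values of 0.97 and 1.30 in upf3, a rise of 1.14 ± 0.14 or 2.20-fold (adjusted p = 4.9e-07) and the 3rd highest exon probe. Neither its intron nor its junction probe was measured there. REC114 had junction values of 1.05 and 1.45, a rise of 1.25 ± 0.13 (adjusted p = 5.0e-07) and the second highest after REC107. The REC114 exon probe read −0.26 and 0.52 and was not called, so that its junction index was 1.30 and 0.93 (1.12 ± 0.10, adjusted p = 5.5e-06), the highest of 217. REC107, HFM1 and REC114 were therefore high on both arrays, REC114 at the junction and not at the exon.

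The other members changed less in upf3. MEI4 exon values were 0.27 and 0.73 (0.50 ± 0.14, adjusted p = 0.013), and PCH2 intron values were 0.25 and 1.06 (0.65 ± 0.16, adjusted p = 0.0023). The SPO1 intron index was 0.52 and 0.53 (0.53 ± 0.16, adjusted p = 0.018), with a SPO1 intron probe of 0.41 ± 0.17 that was not called. HOP2 exon values were −0.33 and −0.39 (−0.36 ± 0.13, adjusted p = 0.036), and the median over all exon probes was −0.14. DMC1 was not called, with an exon value of 0.20 ± 0.15. The MEI4, HOP2 and SPO1 calls were lost without either array, and the PCH2 call without array 2. The HOP2 call was also lost with arrays centred on their exon or on all named probes.

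Read against all genes in upf3, 3 of 7 exon probes rose with 6.64% of all, and 1 fell with 21.2% of all. Both junction probes tested rose, with 3.69% of all. Of 4 intron probes 2 rose, with 30.3% of all, and 1 of 3 intron indices rose, with 36.7% of all. Of 2 junction indices 1 rose, with 0.922% of all.

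The upf3 values were also set against those of hsp104, which lacks a chaperone and no splicing factor. The difference in the exon probe was 1.80 ± 0.18 for REC107 (adjusted p = 4.0e-08) and 1.10 ± 0.19 for HFM1 (adjusted p = 0.00032), with 4.46% of all exon probes higher in upf3. The junction probes of REC107 and REC114 differed by 1.58 ± 0.19 (adjusted p = 5.8e-06) and 1.11 ± 0.19 (adjusted p = 0.00068), with 2.34% of all higher. The REC107 intron probe differed by 1.55 ± 0.18 (adjusted p = 1.7e-07), with 14.1% of all higher, and the REC114 junction index by 1.07 ± 0.15 (adjusted p = 0.00053), the single junction index that was higher of all tested, or 0.469%. The PCH2 intron probe, at 0.60 ± 0.22, and the HOP2 exon probe, at −0.43 ± 0.18, did not pass this test. Between dbr1 and hsp104, the intron probes of REC107 and SPO1 differed by 2.53 ± 0.18 (adjusted p = 1.2e-13) and 1.44 ± 0.25 (adjusted p = 3.7e-06), with 82.7% of all intron probes higher in dbr1. The REC107 intron index differed by 2.14 ± 0.20 (adjusted p = 2.6e-10), with 78.9% of all higher. In that contrast the strain and the labelled pool of cell states cannot be told apart.

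REC114 encodes a protein that acts with Mei4 and the REC107 product. Among members its junction indices had the widest range, from −1.07 in prp18 to 1.12 in upf3 over 10 mutants. That index was tested in 17 mutants for REC107, 3 each for PCH2 and SPO1, and dbr1 alone for MEI4, DMC1, HOP2 and HFM1. The ranking thus depends on how often a member was measured. In prp4-1a, after 2 h at 37 °C, the REC114 intron probe read 1.73 and 2.88 (2.30 ± 0.16, adjusted p = 2.4e-09), and its junction probe 1.29 and 1.78 (1.54 ± 0.13, adjusted p = 2.1e-10). Junction probes had a median of −1.77 in prp4-1a and REC114 was the highest of 216, whereas its intron probe was the 54th highest of 221, with a median of 1.88. Both arrays gave high values for both probes, and the intron probe had no residual degrees of freedom of its own. The intron probe was measured on both arrays in prp4-1a alone, and so was tested only where it was high. The REC114 exon probe was measured on array 2 alone and read 0.28. The junction probe was 1.33 ± 0.19 higher in prp4-1a than in snu66, which lacks another protein of the tri-snRNP (adjusted p = 8.9e-07), with 2.40% of all junction probes higher. The mutated gene, the heat shift and the wild type used all differ in that contrast and cannot be told apart.

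In prp18, which lacks a factor of the second splicing step, REC114 exon and junction probes moved apart. The exon probe read 0.31 and 1.01, a rise of 0.66 ± 0.10 (adjusted p = 2.5e-05), and the junction probe read −0.74 and −0.08, a fall of 0.41 ± 0.13 (adjusted p = 0.011). The junction index was −1.05 and −1.09, or −1.07 ± 0.10 (adjusted p = 1.6e-06), the 7th lowest of 211. The index was thus nearly the same on both arrays, although each probe was lower on array 1 than on array 2. The exon value of array 2 came from 1 usable spot. With at least 2 usable spots required, neither the REC114 exon probe nor its junction index could be tested in prp18. Without array 1 the junction probe alone was −0.22, and with arrays centred on exon probes −0.21, neither called. In prp17, another second-step mutant, the REC114 junction probe was measured on array 2 alone, with a junction index of −0.99 that was not tested. Its exon probe read −0.10 and 0.38 (0.14 ± 0.10, not called), lower than in prp18 by 0.52 ± 0.14 (adjusted p = 0.018), with 16.1% of all exon probes lower in prp17.

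Smaller REC114 changes were a rise of the junction probe in msl1 with 0.47 and 0.30 (0.38 ± 0.13, adjusted p = 0.022) and of the junction index in brr1 with 0.71 and 0.27 (0.49 ± 0.10, adjusted p = 0.0065). The first was lost without array 1, at 0.14, and the second without either array. Junction probes rose in 0.465% of tests in msl1, and junction indices in 2.33% in brr1. Over 10 mutants with both, the REC114 junction and exon probes correlated across mutants at −0.26, as a description of values that share arrays.

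The intron index of REC107 stayed near 0 in splicing mutants where most other introns rose. The REC107 intron index was 0.10 and 0.07 on the 2 arrays of brr1, 0.03 and 0.15 in msl1, −0.06 and 0.01 in snu17 and 0.10 and 0.22 in snu66. Medians over all introns were 1.25 in brr1, 1.21 in msl1, 1.35 in snu17 and 1.25 in snu66. REC107 was the 4th lowest of 212 introns in brr1, the second lowest of 193 in msl1 and of 208 in snu17, and the 6th lowest of 203 in snu66. The 95% intervals of its index ran from −0.20 to 0.37 in brr1, from −0.20 to 0.38 in msl1, from −0.31 to 0.26 in snu17 and from −0.13 to 0.45 in snu66. Each interval lay below the lower quartile of all introns in that mutant, at 0.90 in brr1 and in msl1, 1.055 in snu17 and 0.89 in snu66.

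In prp18 and gcr3 the REC107 index was also near 0. It was −0.07 in prp18, with a median of 0.83 over all, and −0.04 in gcr3, with a median of 0.75. In nam8, which lacks the U1 protein known to work with Mer1, the REC107 index was 0.12 ± 0.14 and not called, and it differed from that in mud1 by 0.18 ± 0.20 (adjusted p = 0.79). Mer1 is made in meiosis, and the labels name no sporulating cells for nam8 or mud1. These values therefore cannot show whether Nam8 is needed for splicing of this intron in meiosis. The REC107 intron was measured on array 2 of prp4-1a alone, where its index was 0.28, against a median of 3.37 over the introns tested there. The REC107 index was called in 1 of 17 mutants, dbr1.

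SPO1 had the next most intron indices, with both arrays in 10 mutants, but several of its values rest on few spots. Its index was −0.09 and −0.25 in prp4-1a (−0.17 ± 0.16, not called), the 3rd lowest of 216 introns. On array 1 of prp4-1a the SPO1 intron probe had 2 usable spots with an SD of 1.21, and its exon probe 1 spot. On array 2 of brr1 its intron probe had 2 spots with an SD of 0.83, and its exon probe 1 spot. The index was −0.06 ± 0.16 in brr1 and 0.14 ± 0.16 in gcr3, neither called. In prp18 SPO1 had an index of 0.60 and 0.50, a rise of 0.55 ± 0.16 (adjusted p = 0.0052), and an intron probe of 0.45 and 0.36 (0.41 ± 0.17, adjusted p = 0.034). In mud2 the index was 0.43 and 0.17 (0.30 ± 0.16, not called). Of the 10 mutants with both arrays, prp18, upf3 and mud2 were thus those with a SPO1 index above 0 on both. Without array 2 of prp18 the index was 0.52 and not called, and without array 1 the intron probe was 0.20 and not called. Both SPO1 exon values in prp18 and its intron value on array 1 came from 1 spot each.

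Set against all introns, 0 of 1 tested member index rose in prp4-1a, msl1, snu17 and snu66, where 97.2%, 94.3%, 94.2% and 92.6% of all introns rose by limma. The unadjusted p was under 0.05 for 0 of these 4 values. The value in prp4-1a was that of SPO1, and those in msl1, snu17 and snu66 were of REC107. Indices on array 2 of prp4-1a alone, not tested, were 2.60 for REC114, 0.63 for MEI4 and 0.28 for REC107. On that array the intron and exon probes read 0.37 and −0.69 for HFM1, 0.75 and 0.39 for DMC1, and 0.08 each for PCH2. In brr1 and gcr3 0 of 2 rose, with 94.3% and 66.4% of all raised, also with 0 values at an unadjusted p under 0.05. In prp18 1 of 2 rose, with 74.9% of all. In mud13, which lacks the small cap-binding subunit, the DMC1 index was 0.11 and 0.86 (0.49 ± 0.18, adjusted p = 0.034) and 1 of 2 rose, with 50.2% of all. Without array 2 of mud13 the DMC1 index was 0.20 and not called.

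**Figure D3:**
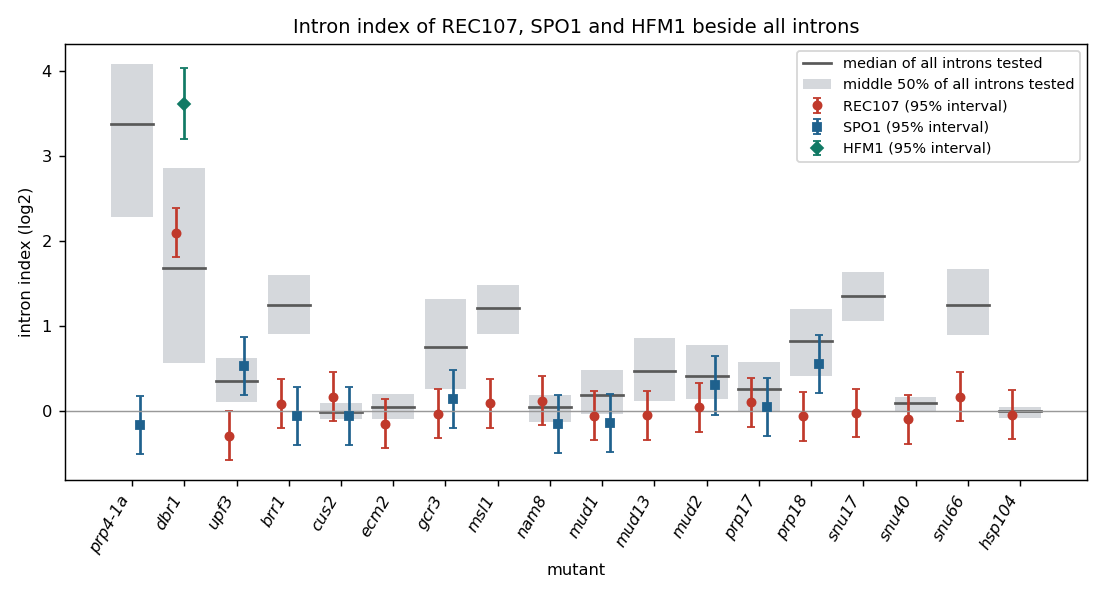
Intron index in log2 units (vertical axis) of REC107, SPO1 and HFM1 by mutant (horizontal axis), with 95% intervals from limma. Grey boxes hold the middle 50% of all introns tested in a mutant and the dark line is their median. REC107 stays near 0 outside dbr1, also in brr1, msl1, snu17 and snu66, where the medians lie between 1.21 and 1.35.

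The probes of REC107 rose and fell together outside dbr1. Over the 16 other mutants the fitted intron and exon values correlated at 0.979, junction and exon values at 0.968 and intron and junction values at 0.967, a description of probes that share arrays and samples. With dbr1 included, the correlation of intron and exon values was 0.64. The junction index of REC107 stayed between −0.22 in ecm2 and 0.22 in prp17 and was called by limma in 0 of 17 mutants, also at an unadjusted p under 0.05.

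Total RNA of REC107 was lower in brr1, which lacks a protein of snRNP biogenesis. The exon probe read −0.78 and −0.57 (−0.68 ± 0.13, adjusted p = 8.3e-05), the intron probe −0.68 and −0.51 (−0.59 ± 0.13, adjusted p = 0.00012) and the junction probe −0.60 and −0.45 (−0.52 ± 0.13, adjusted p = 0.0028). All 6 values were below 0. In brr1 40.7% of all exon probes fell, 1.88% of all intron probes and 44.7% of all junction probes. The junction call was lost without array 2, at −0.44, and with arrays centred on exon probes, at −0.32.

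The values of REC107 in snu66 were lower too but less even. The exon probe read −0.71 and −0.17 (−0.44 ± 0.13, adjusted p = 0.017), the junction probe −0.88 and −0.12 (−0.50 ± 0.13, adjusted p = 0.012) and the intron probe −0.61 and 0.05 (−0.28 ± 0.13, adjusted p = 0.041). The SPO1 intron probe also fell in snu66, with −0.88 and 0.09 (−0.40 ± 0.17, adjusted p = 0.033). Array 1 of snu66 was the lower array for each. Without it the values were −0.42 for the REC107 exon, −0.26 for its junction, −0.12 for its intron and −0.04 for the SPO1 intron, none called. Without array 2 the REC107 exon probe was −0.46 and also not called. Exon probes fell in 12.6% of all tests in snu66, junction probes in 12.3% and intron probes in 1.47%. In the order of exon values REC107 was highest in upf3 and lowest in brr1 and snu66, and the other 15 mutants lay between −0.20 and 0.29.

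**Figure D4:**
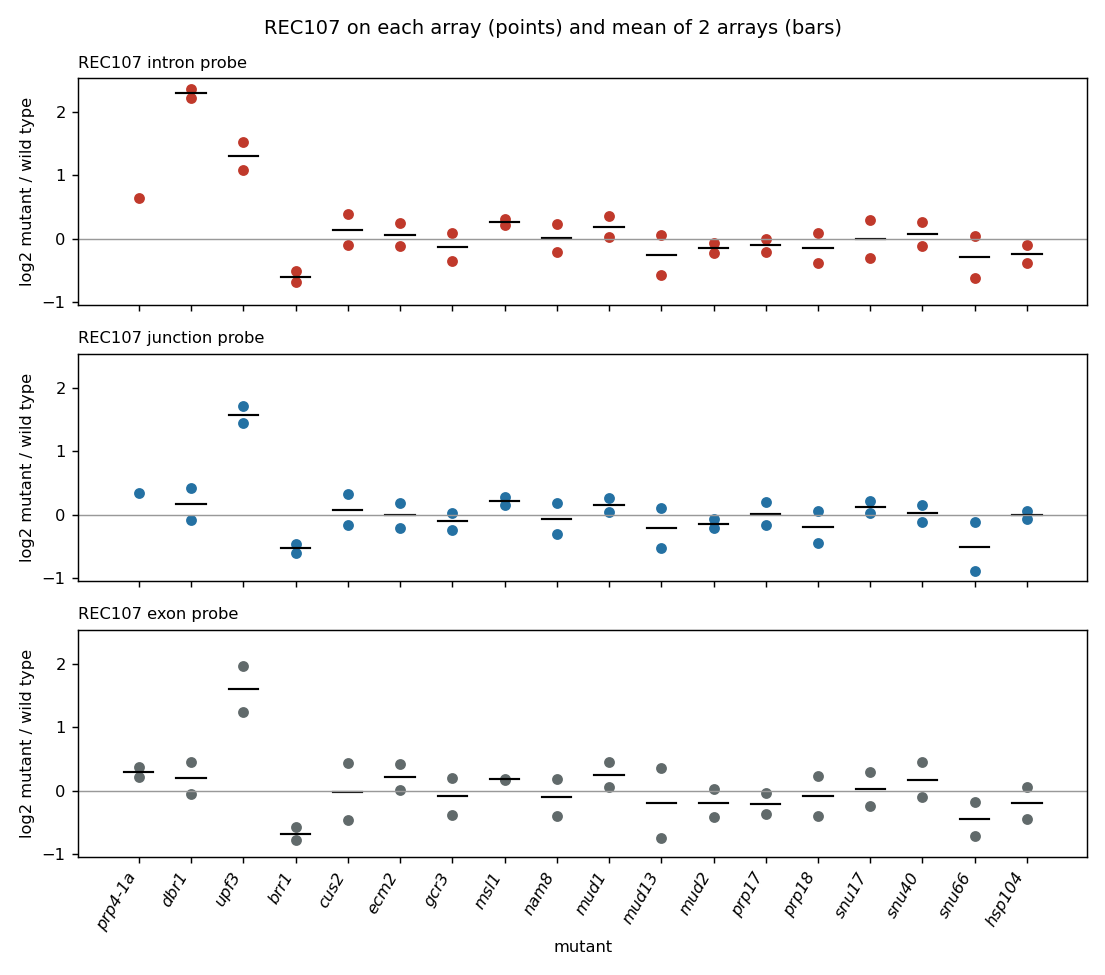
REC107 log2 ratio of mutant over wild type (vertical axis) at its intron, junction and exon probes (panels from top to bottom) by mutant (horizontal axis). Points are single arrays and bars the mean where both arrays gave a value. All probes are above 1 in upf3 and below 0 in brr1, and dbr1 is above 2 at the intron probe alone.

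In prp4-1a exon probes had a median of −1.24 over all genes, and the exon centre of that strain was −1.20, so that centring on exon probes, which subtracts it, raises its values. The exon probes of the meiotic genes did not follow, with a median of 0.22 over 6. REC107 exon values were 0.22 and 0.37 (0.29 ± 0.13, adjusted p = 0.034), and SPO1 exon values 0.00 and 0.62 (0.31 ± 0.12, adjusted p = 0.027). HFM1 had 0.01 and −0.69 (−0.34 ± 0.14, adjusted p = 0.024), a fall on array 2 alone. MEI4, HOP2 and PCH2 exon values lay between 0.17 and 0.24 and were not called. Relative to the exon median all 6 were thus high, and the HFM1 value turned to 0.86 with arrays centred on exon probes, to 0.03 with arrays centred on all named probes, and to 0.14 without array 2. The REC107 call was lost without array 1, at 0.11, and the SPO1 call without array 2, at 0.17. The REC107, SPO1 and HFM1 calls were each also lost without the dye term, with arrays weighted by spread, and from the arrays of prp4-1a alone.

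Of the exon probes in prp4-1a, 2 of 6 rose with 8.07% of all, and 1 fell with 76.2% of all. Of 2 junction probes 1 rose, with 4.17% of all, and of 2 intron probes 1 rose, with 93.7% of all. The other junction probe was that of PCH2, at −0.06 and −0.43, not called, and its junction index was −0.46 and −0.52 (−0.49 ± 0.12, adjusted p = 0.0087), a fall shared with 54.7% of all. Without array 1 the PCH2 index was −0.30 and not called. The REC107 exon probe was 0.74 ± 0.18 higher in prp4-1a than in snu66 (adjusted p = 0.00053), with 10.9% of all higher. The exon centres, which centring on exon probes subtracts, were −1.20 in prp4-1a and 0.016 in snu66, so that the difference would be larger with it. The heat shift and the separate wild type of prp4-1a move with this difference too.

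HOP2 and MEI4 were seen mainly through their exon probes, which gave values on all arrays. The HOP2 exon probe was highest in gcr3, which lacks the large cap-binding subunit, at 0.92 and 0.54 (0.73 ± 0.13, adjusted p = 3.0e-05). It also rose in prp17, at 0.47 and 0.37 (0.42 ± 0.13, adjusted p = 0.010), and fell in mud1, at −0.39 and −0.49 (−0.44 ± 0.13, adjusted p = 0.031). Both arrays shared the sign in each. The prp17 and mud1 calls were lost without either array, whereas the gcr3 call was kept.

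MEI4 exon values were lowest in snu17, a strain without 1 protein of the RES complex, at −0.65 and −0.51 (−0.58 ± 0.14, adjusted p = 0.0026). The probe fell too in ecm2, at −0.73 and −0.32 (−0.52 ± 0.14, adjusted p = 0.011), and in mud13, at −0.16 and −0.67 (−0.41 ± 0.14, adjusted p = 0.021). In gcr3 it read 0.22 and 0.55 (0.39 ± 0.14, adjusted p = 0.024), a rise. The snu17 call was lost without array 2, at −0.56, and the ecm2 and gcr3 calls without either array. In mud13 the value was −0.04 without array 2. Centring on exon probes also ended the snu17 and mud13 calls.

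DMC1 fell at its exon probe in mud13, at −0.54 and −0.22 (−0.38 ± 0.15, adjusted p = 0.045), a call lost without either array and under both centrings. In prp17 the intron probes of MEI4, at 0.85 and 0.41 (0.63 ± 0.17, adjusted p = 0.0069), and of DMC1, at 0.54 and 0.44 (0.49 ± 0.18, adjusted p = 0.032), rose. Without array 1 they were 0.25 and 0.05 and not called. Both MEI4 intron values in prp17 and the DMC1 intron value on array 1 came from 1 spot each. The MEI4 intron probe had 1 residual degree of freedom. The MEI4 intron index in prp17 was 0.43 ± 0.18 and not called (adjusted p = 0.096), and that of DMC1 was measured on array 2 alone, at −0.06, and not tested.

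The share of all exon probes that rose was 6.64% in gcr3, 5.33% in prp17 and 19.3% in prp18. The share that fell was 8.00% in mud1, 44.4% in mud13, 2.20% in ecm2 and 34.7% in snu17. Of all intron probes 26.3% rose in prp17 and 75.5% in prp18, and in prp18 50.7% of all junction probes and 23.7% of all junction indices fell. Members called in these strains were 2 of 7 exon probes in gcr3, 1 of 6 in prp17, in prp18 and in mud1, 2 of 6 in mud13, 1 of 7 in ecm2 and 1 of 4 in snu17, 2 of 5 intron probes in prp17 and 1 of 2 in prp18. In prp18 1 of 2 junction probes and 1 of 2 junction indices fell.

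The cap-binding subunits were set against each other because their strains lack partners of 1 complex. The exon probe was higher in gcr3 than in mud13 by 0.80 ± 0.20 for MEI4 (adjusted p = 0.013) and by 0.80 ± 0.18 for HOP2 (adjusted p = 0.0059), with 2.22% of all exon probes higher. The spread between the mud13 arrays, given above, moves with both differences.

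Of the other meiosis genes with introns that were looked for (AMA1, MND1, SAE3, SPO22 and REC102), 0 of 5 had a named probe on the array. Of genes used in dividing cells, all 4 repair and replication genes with introns that were looked for were on the array. In prp4-1a all 4 intron indices rose, at 3.52 ± 0.19 for UBC13 and 3.45 ± 0.18 for MMS2, which form a ubiquitin-conjugating pair, 1.98 ± 0.19 for the damage-recognition gene RAD14 and 1.84 ± 0.18 for RFA2, a subunit of the single-strand binding protein RPA. In dbr1 1 of 3 indices rose, UBC13 at 1.26 ± 0.19 (adjusted p = 1.1e-06). The intron probes of all 3 rose there, at 1.18 for UBC13, 0.62 for RAD14 and 0.40 for MMS2, with 85.6% of all intron probes raised. Of all intron indices, 97.2% rose in prp4-1a, 81.6% in dbr1 and 36.7% in upf3. By limma 0 of the 3 indices tested rose in upf3, also at an unadjusted p under 0.05, the highest being UBC13 at 0.17 ± 0.19. GLC7, a protein phosphatase gene also needed in meiosis, had an index of 2.30 ± 0.14 in prp4-1a. The genes with the index most like that of REC107 across mutants were LSM7, at a Pearson correlation of 0.949 over 16 mutants, and OM14, at 0.949 over 12, and without dbr1 these were 0.367 and 0.427. No other member had an intron index in at least 12 mutants.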

How the data were processed

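RNA of 18 mutants and their wild types was measured on 36 2-colour arrays. The authors deposited 1 log2 ratio per spot. The sources used here do not give how scanned images became ratios, and the labels do not state the base: of 1562 differences between recurring values of an array, 153 matched, to 3e-09, the log of 1 whole number over another at base 2, 0 at base e and 4 at base 10. This test replaced a first form that matched 0 of 179 recurring values at any base. Each of 864 probes had 4 spots. Spots at exactly 0 (8 to 985 per array) or blank (0 to 1110) were missing, and usable spots were averaged. The channel given in the labels set the sign, so that the mutant is on top, and no scaling was added. The number of arrays limits the precision.

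Each measure had 1 limma fit (limma 3.58.1, R 4.3.3) over all arrays, with 1 coefficient for each mutant and 1 dye term for all, which is also the block by which the exchanged arrays pair. The fits had a median of 17 residual degrees of freedom. Calls used an adjusted p of 0.05. Tests needed both arrays of a mutant. This rule was added after a first run that allowed 1 array had been seen, and allowing 1 array, or requiring at least 3 residual degrees of freedom, was added as an alternative after seeing the data. The fit was first tested on simulated data. The genes, lists, contrasts and the rule to name all members were chosen with earlier results of these data known. All 8 symbols matched the gene table. Sequences and coordinates were not used here.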

Additional observations from a re-analysis of the deposited data

Results flagged for a closer look

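Differences between mutants in the same fit that passed an adjusted p of 0.05 are the results listed here. Between dbr1 and hsp104 they were the intron probe of REC107 (2.53) and of SPO1 (1.44) and the intron index of REC107 (2.14). Between upf3 and hsp104 they were REC107 at its intron (1.55), junction (1.58) and exon probe (1.80), HFM1 at its exon probe (1.10), and REC114 at its junction probe (1.11) and junction index (1.07). Between prp4-1a and snu66, which also differ in heat shift and wild type, the REC114 junction probe (1.33) and the REC107 exon probe (0.736) differed. Between gcr3 and mud13 the exon probes of MEI4 (0.80) and HOP2 (0.804) differed, and between prp17 and prp18 the exon probe of REC114 (−0.518). All are log2 differences, the first strain minus the second. Groups of 2 arrays are too small for a test of single outlying arrays.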

How the results depend on the processing

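Of 50 called values of the 8 genes, the number that stayed called was 43 with arrays centred on exon probes, 46 centred on all named probes, 27 without the dye term, 40 with zeros kept, 37 of 38 with at least 2 usable spots, 43 with the median of spots, 49 with a trend and robust spread, 40 with arrays weighted by spread, 44 of 44 without prp4-1a, 31 from the 2 arrays of a mutant alone, 19 of 39 against hsp104, 25 at 0.01, 27 without replicate 1 and 29 without replicate 2. On probes measured on all arrays 16 of 16 stayed. HFM1, REC107 and SPO1 introns in dbr1 stayed called under every alternative that gave a value. So did REC107 intron and exon and HFM1 exon probes in upf3, REC114 intron and junction probes in prp4-1a and REC114 exon probe in prp18. For the last, requiring at least 2 usable spots gave no value. The HFM1 intron in dbr1 and the REC114 intron in prp4-1a had no residual degrees of freedom and were tested in no other mutant. Leaving out a replicate there left 1 array with no dye correction, which is a weak check. The REC107 and REC114 junction probes in upf3 were lost in 1 alternative, the arrays of the mutant alone (adjusted p = 0.059 and 0.074). The HFM1 exon value in prp4-1a, at −0.34, turned to 0.86 centred on exon probes, 0.032 centred on all probes, and ran from −0.83 to 0.14 when a replicate was left out.

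The 6 raised intron indices became 0 on probes of all arrays, 3 with at least 2 usable spots, 3 from the arrays of a mutant alone, 1 against hsp104, 3 at 0.01, 12 with 1 array enough, and 3 to 10 leaving out a replicate. The 20 changed exon probes became 9 without the dye term, that is without the replicate block, 12 alone, 8 against hsp104, 6 at 0.01 and 10 to 11 leaving out a replicate. The 8 changed junction probes became 4 without the dye term (no replicate block), 0 on probes of all arrays, 5 with zeros kept, 13 with weights, 3 alone, 5 against hsp104, 4 at 0.01 and 6 to 7 leaving out a replicate. The 3 raised intron probes in dbr1 became 0 on probes of all arrays, 5 with 1 array enough and 4 to 5 leaving out a replicate. The 7 raised probes in upf3 became 3 on probes of all arrays, and 5 to 7 leaving out a replicate. The 5 changed probes in prp4-1a became 10 centred on exon probes, 8 centred on all probes, 5 to 8 leaving out a replicate, and 2 each without the dye term (no replicate block), on probes of all arrays, with weights, alone, against hsp104 and at 0.01. A stricter threshold or fewer probes or arrays makes fewer or other tests by construction, and the cause of the other shifts was not tested. Leaving out a replicate also adds probes measured on the remaining array. The deposited ratios do not show how far a probe stood above background.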
